A study of Mus musculus with 7 samples.

Results

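Skeletal muscle takes up glucose through facilitative transporters, traps it by phosphorylation and adjusts the uptake to insulin. Slc2a4 encodes GLUT4, the transporter that insulin and contraction bring to the surface of the muscle fibre. Slc2a1 encodes GLUT1, a widely expressed transporter for basal uptake that is also found in vessels and nerve sheaths. Hk1 encodes hexokinase 1, one of the enzymes that turn glucose into glucose 6-phosphate, and Insr encodes the insulin receptor, the tyrosine kinase at the head of the insulin pathway. The 4 genes were taken by symbol from the platform's probe annotation. Each has 1 probe, so 4 of the 223 probes on the array, and 4 of 203 named genes, are described here.

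The samples are 7 soleus muscles, each from 1 mouse without tenascin-C, a glycoprotein of the extracellular matrix. The soleus is a hindlimb muscle rich in slow fibres. Per the labels the animals were null for the gene and were cage controls, and the series names the strain 129/SV and calls the samples biological replicates. The sources used here do not give age, sex or the design of the null allele. All samples form 1 group, replicates are numbered in accession order, and no muscle with intact tenascin-C was analysed, so these values hold no measure of what its loss does. The title of replicate 1 carries the code C16 and the other titles C15, with no explanation.

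Each value is a probe's share of the summed signal of its array, in percent, recorded in steps of 0.01%. The file gives no detection call. The 10th percentile of each array was therefore taken as its floor, and a signal more than 3 times as bright was called clear of it, a criterion chosen with these data known. By it, 38 of 223 probes (17.0%) were clear on every array but replicate 3, 9 (4.04%) on all 7 and 127 (57.0%) on none. Depth in counts does not exist for such arrays, and the number of arrays limits the precision. Replicate 3 stands apart from the other arrays. Its floor was 0.15%, against 0.04% to 0.08%, and it read above every other array for 157 probes (70.4%) and below every other for 32 (14.3%). Slow myosin Myh7, the 1 slow-fibre marker on the array, carried 7.98% to 12.83% on the other 6 arrays and 0.35% in replicate 3, or 2.33 times its floor. That reading goes against the label of a soleus muscle, and whether the array failed or carries another sample was not tested. Every value over 7 arrays and every reading of replicate 3 is subject to that doubt. The Tnc probe ran from 0.08% to 0.18% and was clearly above the floor on 0 of 7 arrays. The main values below are given with and without replicate 3.

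The insulin-regulated transporter was clear of the floor on every array, including replicate 3 with the doubt given above. The other 3 genes lay at or near the level of an ordinary probe. Slc2a4 was clearly above the floor on 7 of 7 arrays, Slc2a1 on 1, Hk1 on 0 and Insr on 0. Slc2a4 thus belongs to the 4.04% of probes that were clear on all 7 arrays, and Hk1 and Insr to the 57.0% that were clear on none.

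Slc2a4 carried 0.52%, 0.37%, 2.22%, 0.56%, 0.58%, 0.55% and 0.58% of the array sum in replicates 1 to 7. Replicate 3 was high, replicate 2 was low, and the other 5 muscles lay within 0.06 percentage points of each other. The mean was 0.769% ± 0.644 (SD, n = 7), and 0.527% ± 0.0799 (SD, n = 6) without replicate 3, a coefficient of variation of 15.2%. Against its own array the probe read 7.0 to 14.8 times the floor and 4.31 to 12.3 times the median probe. It ranked between 24.5 (a tie) and 32 among the 223 probes on the other 6 arrays and 9th in replicate 3. By mean signal over those 6 arrays its neighbours among named probes were Pole2, a subunit of a DNA polymerase, at 0.528% ± 0.155 and Mdh2, mitochondrial malate dehydrogenase, at 0.525% ± 0.0880 (SD, n = 6). These neighbours do not differ from Slc2a4 beyond their spread, and a probe's signal depends on its primer as well as on its transcript.

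**Figure D1:**
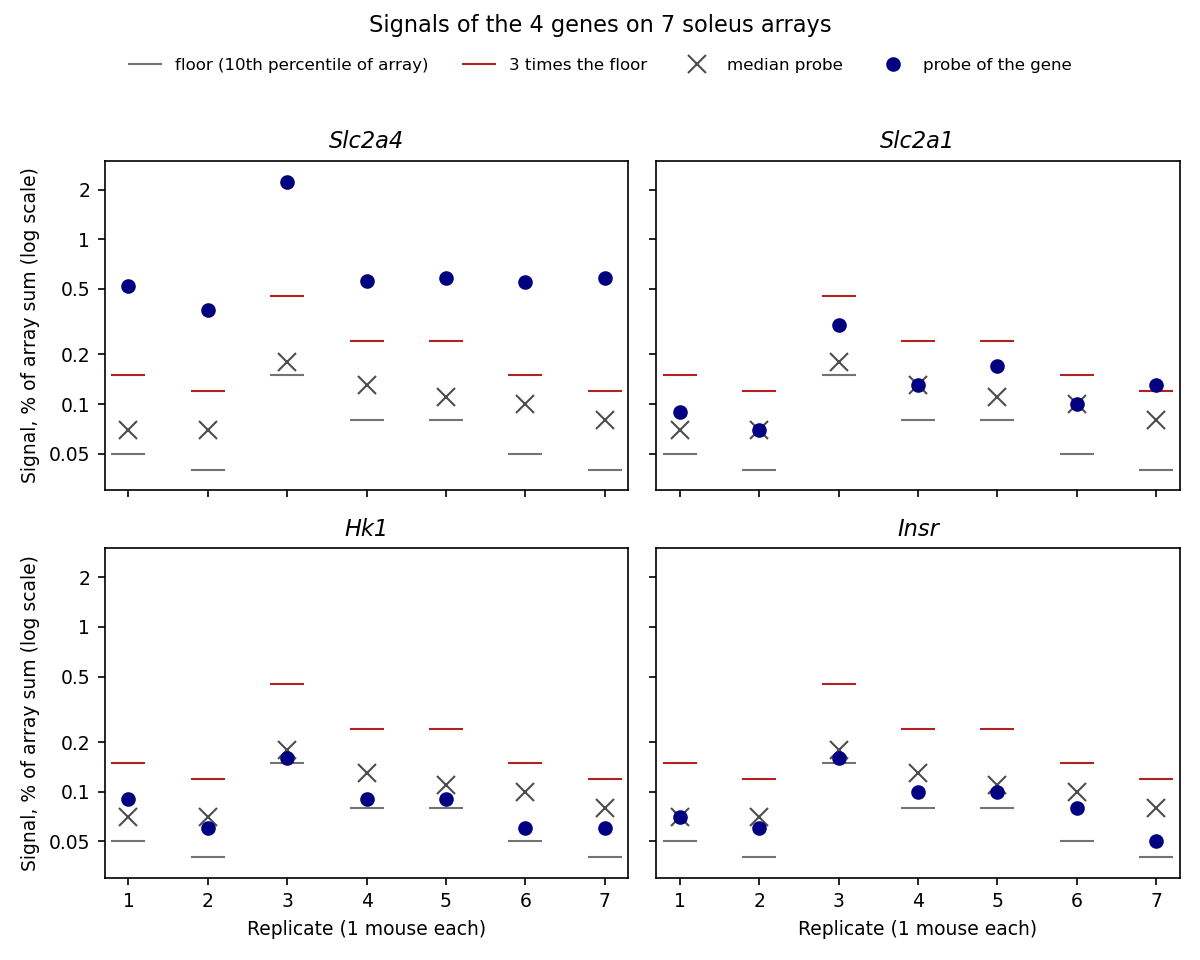
Signal of each gene's probe in percent of the array sum (log scale) on the 7 arrays, 1 mouse each, with the floor, 3 times the floor and the median probe of each array. Slc2a4 lies above 3 times the floor on every array and reaches 2.22% in replicate 3, Slc2a1 passes that line on replicate 7, and Hk1 and Insr stay between the floor and 3 times the floor.

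Slc2a1 carried 0.09%, 0.07%, 0.30%, 0.13%, 0.17%, 0.10% and 0.13% in replicates 1 to 7. Replicate 3 was highest here too and replicate 2 lowest. The mean was 0.141% ± 0.0771 (SD, n = 7), and 0.115% ± 0.0356 (SD, n = 6) without replicate 3. The probe read 1.63 to 3.25 times the floor and passed 3 times the floor in replicate 7, at 0.13% over a floor of 0.04%. Relative to the median probe it read 1.0 times in replicates 2, 4 and 6 and at most 1.67 times, in replicate 3. It was below the median probe on 0 of 7 arrays. A basal transporter signal was therefore at most a few recording steps above the floor in most muscles, from 3 steps in replicate 2 to 9 in replicates 5 and 7, and 15 in replicate 3.

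Hk1 carried 0.09%, 0.06%, 0.16%, 0.09%, 0.09%, 0.06% and 0.06% in replicates 1 to 7. The mean was 0.0871% ± 0.0355 (SD, n = 7), and 0.0750% ± 0.0164 (SD, n = 6) without replicate 3. The probe exceeded the floor by 1 to 4 recording steps and lay below the median probe on 6 of 7 arrays. In replicate 1 it lay above it, at 1.29 times. An SD of 1.64 recording steps over the 6 arrays leaves differences between these muscles close to the resolution of the file. Hexokinase 2, the main hexokinase of muscle, has no named probe on the array, so Hk1 does not stand for hexokinase as a whole.

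Insr carried 0.07%, 0.06%, 0.16%, 0.10%, 0.10%, 0.08% and 0.05% in replicates 1 to 7. The mean was 0.0886% ± 0.0367 (SD, n = 7), and 0.0767% ± 0.0207 (SD, n = 6) without replicate 3. The receptor probe read 1.07 to 1.60 times the floor and was above the median probe on 0 of 7 arrays and equal to it on replicate 1. The high reading in replicate 3 was 0.889 times that array's median probe and 1 recording step over its floor. The receptor probe was thus not clear of the floor on any array, which does not show that its transcript was absent.

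The next question was how the balance of the 2 transporters varied between the muscles. Because both probes lie on the same array, their ratio is free of any scaling of whole arrays, although it is a ratio of 2 probe signals and not of transcripts. Slc2a4 exceeded Slc2a1 in signal on 7 of 7 arrays. The ratio was 5.78, 5.29, 7.40, 4.31, 3.41, 5.50 and 4.46 in replicates 1 to 7. Replicate 3 was highest and replicate 5, where Slc2a1 read 0.17%, lowest. The mean ratio was 5.16 ± 1.28 (SD, n = 7), and 4.79 ± 0.891 (SD, n = 6) without replicate 3. On the log2 scale the SD of the ratio was 0.36 over 7 arrays, against 0.82 for Slc2a4 and 0.69 for Slc2a1 alone. Without replicate 3 it was 0.28, against 0.25 and 0.46. Over 7 arrays the highest and lowest ratios differed by a factor of 2.17, while Slc2a4 itself spanned a factor of 6.0 and Slc2a1 4.29. Without replicate 3 the ratio spanned a factor of 1.69, Slc2a4 1.57 and Slc2a1 2.43, so the ratio was then no steadier than Slc2a4 alone.

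Recording steps and the floor set how far this ratio can be read. A step of 0.01% allows 4.87 to 5.77 in replicate 2, where Slc2a1 is dimmest, and 3.29 to 3.55 in replicate 5. The intervals of replicates 1, 2 and 6 overlap, as do those of replicates 4 and 7, so the order within these sets is not resolved. Subtracting each array's floor from both probes raised the ratio to 5.56 in replicate 5 and 13.8 in replicate 3, with a median of 9.80 over the arrays other than replicate 3. Replicate 3 was again highest and replicate 5 lowest, but their rounding intervals now overlapped those of replicates 1 and 2 at the top and of replicate 7 at the bottom. The size of the ratio therefore depends on whether the floor is subtracted, since Slc2a1 is close to the floor.

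**Figure D2:**
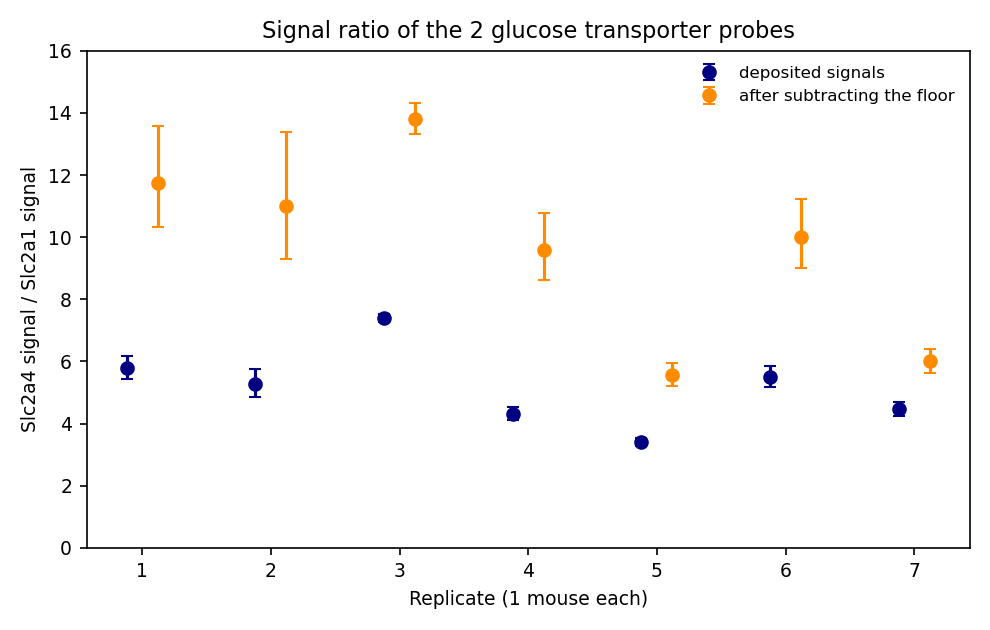
Ratio of the Slc2a4 signal to the Slc2a1 signal on each of the 7 arrays, from the deposited signals (blue) and after subtracting each array's floor from both (orange); bars span the rounding of both signals to 0.01%, with the floor taken as exact. The deposited ratio runs from 3.41 in replicate 5 to 7.40 in replicate 3, and the subtracted one from 5.56 to 13.8 on the same 2 arrays.

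All 4 genes read highest in replicate 3, but not by the same factor. Its Slc2a4 signal was 4.22 times the mean and 3.83 times the highest of the other 6 arrays. Slc2a1 was 2.61 times that mean, Hk1 2.13 times and Insr 2.09 times. The median over all 223 probes was 2.23 times, and 157 of them (70.4%) read above every other array, so the factors of Hk1 and Insr were near that of an ordinary probe. Relative to the median probe of each array, Slc2a4 read 12.3 times in replicate 3 and 5.84 ± 1.23 times (SD, n = 6) elsewhere. In the same terms Slc2a1 read 1.67 against 1.24 ± 0.289, Hk1 0.889 against 0.834 ± 0.239 and Insr 0.889 against 0.827 ± 0.128. With 1 such array there is no replicate check, and no test separates these values.

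Where Slc2a4 lies among bright probes in replicate 3 depends on which arrays define them. Of the 38 probes clearly above the floor on the other 6 arrays, 31 read below every other array in replicate 3, 3 within their range and 4 above. The median of the 38 was 0.253 times the mean of the other arrays. These 38 were selected as bright on the other arrays, which favours a lower reading in replicate 3. Of the 29 probes clear in replicate 3, 24 read above every other array there, and 27 of all 223 probes had a larger factor than Slc2a4. The 4 that read above were Igfbp6, an IGF-binding protein gene, at 13.7 times that mean, Slc2a4 at 4.22, the integrin gene Itgb1 at 3.34 and Pole2 at 2.42. Igfbp6, Itgb1 and Pole2 were named after their values were seen. All 4 are among the 9 probes that were clear on all 7 arrays, and the other 5 of the 9 read below every other array.

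**Figure D3:**
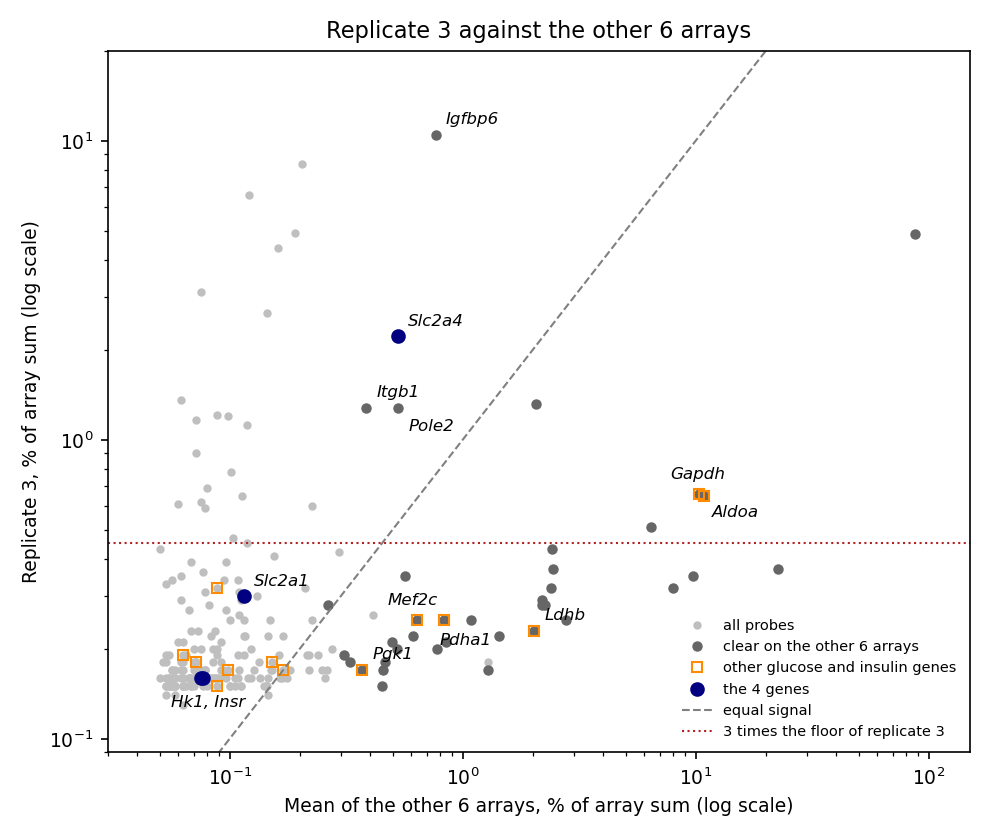
Signal in replicate 3 against the mean of the other 6 arrays for all 223 probes, both in percent of the array sum on log scales, with the 4 genes, other genes of glucose use and insulin signalling, and probes clear on the other 6 arrays marked. Slc2a4 lies above the line of equal signal at 2.22% against 0.527%, while Aldoa, Gapdh, Ldhb, Pdha1, Mef2c and Pgk1 lie below it and Hk1 and Insr sit in the cloud of dim probes.

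Among markers of vessels, which also carry GLUT1, 2 of 6 were clear of the floor in replicate 3. All 6 endothelial probes read above the mean of the other arrays there, with a median of 2.38 times that mean, beside 2.23 over all probes. Their summed signal was 9.66% against 0.50% to 1.35% on the other arrays. Most of that sum was the adhesion molecule Pecam1 at 8.36%, and the endothelial cadherin Cdh5 read 0.60%. The receptor genes Kdr and Tek and the synthase gene Nos3 each read 0.16% in replicate 3, 1.07 times its floor, and Flt1 0.22%. The 3 fibroblast probes summed to 0.49% against 0.24% to 0.34%, and the leukocyte marker Il1b read 0.17% against 0.04% to 0.09%. The adipocyte marker Fabp4 read 0.18% against 0.34% to 0.66%, and the 3 fast-fibre myosins summed to 0.83% against 3.85% to 8.77%. The lists for nerve and blood had no probe. The part of other cell types in the signals of replicate 3 was not tested. In a whole muscle, fewer cells of a type and less RNA per cell cannot be told apart.

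Spread between mice was then tested for every probe. Limma's variance test compares a probe's variance over arrays with the trend of all probes at a like level, one-sided, with Benjamini-Hochberg adjustment over 223 probes. None of the 4 genes was called, although the SDs of Slc2a4 and Slc2a1 lay above the trend. Slc2a4 had an SD of 0.82 on the log2 scale against 0.78 for the trend at its level (limma adjusted p = 0.885), and Slc2a1 0.69 against 0.55 (limma adjusted p = 0.885). Hk1 had 0.52 against 0.66 (limma adjusted p = 0.887) and Insr 0.56 against 0.65 (limma adjusted p = 0.885). Over all probes limma called 0 of 223 (0.0%), with 17 at an unadjusted p under 0.05. The trend includes the deviation of replicate 3, so a shift that many probes share could not be called.

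Without replicate 3 the test called 5 of 223 probes (2.24%) and again none of the 4 genes. Slc2a4 then had an SD of 0.25 against 0.36 for the trend, Slc2a1 0.46 against 0.41, Hk1 0.32 against 0.45 and Insr 0.40 against 0.45, each with a limma adjusted p of 0.949. Among the 38 bright probes, the SD of Slc2a4 was the 8th smallest. A p that misses the threshold does not show that the muscles were alike.

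The transporters were next compared across muscles on the 6 arrays other than replicate 3. Of the 6 pairs among the 4 genes, 1 passed the test after adjustment. The log2 signals of Slc2a4 and Slc2a1 rose together, with r = 0.83 (exact two-sided permutation p = 0.00556 over 720 pairings, adjusted over 6 pairs 0.0333) and rho = 0.96 (exact permutation p = 0.0111, adjusted 0.0667). With replicates 1 and 2 left out, whose Slc2a4 signals lay farthest from its median, r was 0.82 over the 4 arrays left, given as a description. Slc2a4 ran only from 0.55% to 0.58% on those 4 arrays, in recording steps of 0.01%, so this r lies close to the limit of the recording. The relation did not pass when the arrays were centred on their median probe, with r = 0.60 (exact permutation p = 0.25, adjusted 0.511), nor with a pseudocount of 0.05% (r = 0.81, exact permutation adjusted p = 0.0667). It was thus called on the deposited scale and not on the median-centred one. The remaining 5 pairs had r between 0.37 and 0.70 and exact permutation adjusted p from 0.60 to 0.70.

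The 28S rRNA signal was 0.37% in replicate 3, below that of every other array. The 6 arrays also differ in it, with at most 3.79% in replicates 1 and 2 and at least 24.1% in replicates 4 to 7. This split is no label of the study. Slc2a4 read 0.37% and 0.52% in the first 2 arrays and 0.55% to 0.58% in the other 4. Slc2a1 read 0.07% and 0.09% against 0.10% to 0.17%, without overlap for either gene. The median probe itself read 0.07% on both of the first 2 arrays and 0.08% to 0.13% on the other 4, also without overlap. The share of all probes that part in this way was not counted, so these values do not show a separation particular to these genes. Relative to the median probe both genes overlapped between the parts, at 5.29 to 7.43 against 4.31 to 7.25 for Slc2a4 and 1.0 to 1.29 against 1.0 to 1.63 for Slc2a1. Hk1 and Insr overlapped on both scales. After the mean of each part was subtracted, Slc2a4 and Slc2a1 had r = 0.56 (exact permutation p = 0.167, with 48 pairings that keep arrays in their part), which did not pass. Replicates 4 to 7 are the 4 arrays that gave r = 0.82 above, too few for a test of their own, and replicates 1 and 2 are too few for a correlation. These values leave unsettled whether the relation holds within the parts.

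The probes whose pattern was most like that of each gene were sought by Pearson's r of median-centred log2 signal over the 6 arrays, among 204 other named probes, with no test. For Slc2a4 these were Fabp3, the fatty acid-binding protein of heart and slow muscle (r = 0.93, rho = 0.71), Mdh2 (r = 0.93, rho = 0.71) and Fabp4, a fatty acid-binding protein of adipocytes and endothelium (r = 0.92, rho = 0.89). All 3 were clear on the 6 arrays, and all 3 parted from Slc2a4 in replicate 3. They read below every other array there, as did 31 of the 38 probes clear on the 6 arrays, so the parting is not particular to them. Fabp3 read 0.15% there, which is that array's floor, against 0.45% ± 0.0772 (SD, n = 6). Mdh2 read 0.20% against 0.525% ± 0.0880 and Fabp4 0.18% against 0.463% ± 0.114 (SD, n = 6).

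**Figure D4:**
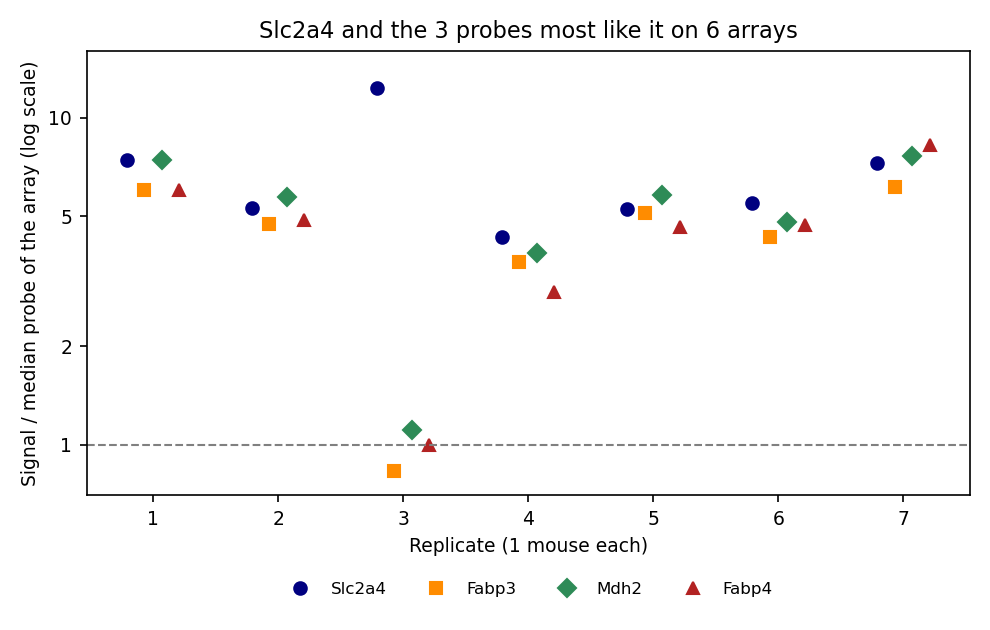
Signal of Slc2a4, Fabp3, Mdh2 and Fabp4 divided by the median probe of the same array (log scale, dashed line at 1) on the 7 arrays. The 4 probes lie close together on the 6 arrays used to choose them, between 2.92 and 8.25 times the median probe, and part in replicate 3, where Slc2a4 reads 12.3 times and the others 0.833 to 1.11 times.

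For the dim genes the most similar probes were mostly dim as well. Slc2a1 was most like the myogenic factor gene Myf5 (r = 0.88), the progenitor and endothelial marker Cd34 (r = 0.82) and Fabp3 (r = 0.77). Of these, Fabp3 was clear on 6 of the 6 arrays, Cd34 on 1 and Myf5 on 0. Hk1 was most like Ctsh, a lysosomal protease gene (r = 0.95), Mmp14, a membrane-bound matrix protease gene (r = 0.95), and Csf2ra, a cytokine receptor gene (r = 0.94). Insr was most like Fgfr4, a growth factor receptor gene (r = 0.98), Htt, the huntingtin gene (r = 0.89), and Mmp8, a collagenase gene (r = 0.88). None of the 3 probes most like Hk1 or of the 3 most like Insr was clear on any of the 6 arrays, so these likenesses are between readings near the floor.

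Of 41 other genes of glucose use and insulin signalling on the list, 13 were on the array. On the 6 arrays other than replicate 3, 6 of the 13 were clear on every array, 2 on some and 5 on none. Those clear on every array were 4 genes for enzymes on the route from glucose to lactate, 1 for an enzyme of mitochondrial pyruvate use and 1 for a transcription factor.

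Of the 6 enzyme genes downstream of uptake that were on the list, 5 were clear on these arrays, and Ldha, described below, was not. Other enzyme probes on the array, among them Aldoc, Eno2, Ldhc and Pcx, were not on the list and are not counted here. Aldoa, muscle aldolase, carried 10.8% ± 1.70 and Gapdh, a glycolytic dehydrogenase, 10.4% ± 3.38 (SD, n = 6). Pgk1, phosphoglycerate kinase, carried 0.370% ± 0.0316 and Ldhb, the heart-type lactate dehydrogenase subunit, 2.03% ± 0.586. Pdha1, a subunit of pyruvate dehydrogenase, carried 0.830% ± 0.148. Pgk1 was the steadiest of the 5, with an SD of 0.12 on the log2 scale. Mef2c, which belongs to the MEF2 factors that act on the Slc2a4 gene in muscle, carried 0.637% ± 0.128, while its relative Mef2a carried 0.0883% ± 0.0183 and was clear on 0 of 7 arrays.

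In replicate 3 all 6 of these genes read below the other arrays. They were selected as clear on those arrays, and 31 of the 38 probes so selected read below in replicate 3. Aldoa read 0.65% (0.0601 times the mean of the others), Gapdh 0.66% (0.0637 times), Ldhb 0.23% (0.113 times) and Pdha1 0.25% (0.301 times). Mef2c read 0.25% (0.393 times) and Pgk1 0.17% (0.459 times). Of the 13 probes, 6 were lower there, 6 higher and 1 equal, with a median of 1.0 times the mean of the other arrays, beside 2.23 over all probes.

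None of the remaining transporters and receptors on the list was clear of the floor on every array. Slc2a2 encodes GLUT2, the transporter of liver and pancreatic islets, and carried 0.14% to 0.21% over the 7 arrays, with 0.17% in replicate 3. It was clear on 3 arrays and read up to 4.25 times the floor. Its signal was above that of Slc2a1 on every array except replicate 3, where Slc2a1 read 0.30%. Slc2a3 encodes GLUT3, the transporter of neurons, and carried 0.06% to 0.17%, clear on 0. Igf1r, the receptor gene related to Insr, carried 0.05% to 0.19% and was clear on 0 arrays. Igf2r, whose receptor binds IGF2 without a kinase, carried 0.13% to 0.18% and was clear on 3. Ldha, the muscle-type lactate dehydrogenase subunit, carried 0.06% to 0.12% on the 6 arrays and 0.32% in replicate 3. Hif1a, a hypoxia factor that acts on Slc2a1, carried 0.06% to 0.18%, and neither was clear on any array. Of the glucose transporters with a probe, Slc2a4 was thus the one clearly above the floor on every array.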

How the data were processed

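Per the labels' protocols, RNA came from frozen sections through the belly of the muscle, and 4 µg were reverse transcribed with gene-specific primers and a radioactive nucleotide for a 1-channel array. The deposited values are linear intensities of 223 probes on 7 arrays, with 0 values missing or not positive. The sources used here name no scanner, background treatment or software. The values themselves show that each array sums to between 99.8% and 100.02% without 2 bright probes, so the authors' intensities are shares. Of the probes, 205 have 1 gene symbol in the platform annotation, 18 have none and none has several, and all 4 genes matched RefSeq by Entrez identifier.

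Log2 intensities were analysed without further scaling, in R 4.3.3 with limma 3.58.1 and in Python 3.11.15. The variance test used an intercept-only fit with a robust trend and 6 residual degrees of freedom, at an adjusted p of 0.05, and was tested on simulated data. Correlations used exact permutation over all pairings. The genes named are the 4 genes, the pathway list, the 3 probes most like each gene, neighbours in mean signal, and markers. The 4 genes and all lists were chosen with earlier results of these data known. Alternatives were median-centring, quantile normalization, dropping dim probes (below the 25th percentile, 168 kept), a pseudocount of 0.05%, subtraction of the floor, other thresholds, a plain limma fit with neither trend nor robustness, and each replicate left out in turn. The alternative that joins median-centring with leaving out replicate 3, and the limits of the recording step, were chosen after seeing the data. No 2 arrays held identical values, and the sources used here give no batch.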

Additional observations from a re-analysis of the deposited data

Results flagged for a closer look

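By Dixon's test on log2 values (the gap between the outermost array and its neighbour, as a share of the range, against the test's critical value), 7 of 15 values examined set 1 array apart, each time replicate 3. Chance gives about 1 in 20, but over all 223 probes 27.4% did so, since replicate 3 differs on many probes at once. Replicate 3 was highest for Slc2a4 (0.749) and Hk1 (0.587), as for 18.8% of all probes. It was lowest for Aldoa (0.853), Pgk1 (0.753), Gapdh (0.723), Ldhb (0.682) and Pdha1 (0.615), as for 8.52% of all probes. These enzyme genes were examined because they were clear on the other arrays, which favours a low reading in replicate 3. All 19 probes with replicate 3 set apart as lowest were among the 38 that were clear on those arrays. The share of 8.52% is therefore no like comparison for these genes. Divided by the median probe of the array, Slc2a4 gave 0.482 and Hk1 0.484, below the critical value, and the highest array for Hk1 was then replicate 1. The ratio of Slc2a4 to Slc2a1 gave 0.320 and was not set apart.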

How the results depend on the processing

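The variance test called between 0 and 5 probes when each replicate was left out, the 5 without replicate 3, and 0 when that array was left out and the others median-centred. It called none of the 4 genes under any alternative run. The mean log2 ratio of Slc2a4 to Slc2a1 was 2.33 as deposited, 3.21 after subtracting the floor and 1.95 with the pseudocount, and it moved by less than 1 SD under the others. Subtracting the floor lowered the mean signal of Hk1 from 0.0871% to 0.0171% and of Insr from 0.0886% to 0.0186%. Slc2a1 was clearly above the floor on 1 array, on 2 at 2 times the floor, and on 0 at 5 times the floor or with the 25th percentile as floor. Of the 6 pairs of genes, 1 was correlated on the 6 arrays, 5 over all 7, which include the 1 that stands apart, and 0 with median-centred arrays, quantile normalization, the pseudocount or any 1 of the 6 arrays left out (range 0 to 0). With 5 arrays there are 120 pairings, which limits how small a p can be, and the smallest adjusted p of any r was 0.1 (exact permutation). That last count therefore says nothing about stability. The cause was not tested for these changes. Signs turned for Slc2a4 with Insr after centring (r = -0.031), for Slc2a1 with Insr after centring (-0.19) and quantile normalization (-0.44), for Slc2a1 with Hk1 under the latter (-0.0040) and for Slc2a4 with Hk1 when replicate 2 was left out (-0.26, the lowest of a range up to 0.61). Slc2a1, Hk1 and Insr lie near the floor, which limits what their spread and correlations can show. No paired analysis was possible because the samples form 1 group.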
